A study of Rattus norvegicus with 24 samples.

Results

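The 39 genes described here are the rat cytochrome P450 genes of families 2, 3 and 4 that have a probe set of their own on the array, 25 of the Cyp2 family, 4 of Cyp3 and 10 of Cyp4, in 16 subfamilies. They were chosen by gene symbol alone, from 14217 genes measured on 24 arrays. The cells were primary rat hepatocytes in sandwich culture, a format in which liver cells are held between matrix layers. They were given 1 of 4 piperazine designer drugs for 24 h: BZP at 625 µM, TFMPP at 35 µM, MeOPP at 522 µM or MDBP at 467 µM, each concentration being that drug's EC20 per the labels. Each drug had 3 treated samples, and each treated sample had a control of its own with 0.1 percent DMSO, which makes 12 pairs of arrays. By structure, BZP and MDBP are benzylpiperazines, and TFMPP and MeOPP are phenylpiperazines. The drugs were given at different concentrations, so a difference between drugs is one of drug and concentration together. Whether the replicates are separate animals or cultures is not stated in the labels. The p-values therefore reflect only how far these samples lay apart, which may be technical.

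Cytochromes P450 are heme proteins of the endoplasmic reticulum that insert an oxygen atom into their substrates, with electrons passed on by P450 oxidoreductase and cytochrome b5. In liver the enzymes of families 2 and 3 oxidize most drugs, many foreign chemicals and steroid hormones, and those of family 4 mainly oxidize the tail end of fatty acids and of eicosanoids such as leukotrienes. Transcription of these genes is known to depend on nuclear receptors, among them CAR (Nr1i3) and PXR (Nr1i2) for Cyp2b, Cyp2c and Cyp3a genes and PPAR alpha (Ppara) for Cyp4a genes, and on hepatocyte factors such as HNF4 alpha. Hepatocytes in culture are known to lose P450 expression with time.

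After 24 h, 28 of the 39 P450 genes were lower in treated cells than in DMSO cells in the mean of the 4 drugs (limma, Benjamini-Hochberg adjusted p under 0.05), and 1, Cyp4f17, was higher. Among all genes, 11.9% were lower and 18% higher by the same rule. The median change of the 39 genes was -0.67 on the log2 scale, against 0.01 for all genes. All changes below are treated minus DMSO in log2 units, in which a change of -1 is a 2-fold fall, and each is given with the standard error of the fit. Of the 28 genes, 17 were lower in 12 of 12 pairs, and 10 fell at least 2-fold, and the matching shares of all genes were not taken. The largest falls were in Cyp4f4 (-1.77 ± 0.12, a 3.41-fold fall), Cyp4a3 (-1.68 ± 0.09), Cyp4a1 (-1.67 ± 0.13), Cyp2a1 (-1.65 ± 0.10), Cyp2e1 (-1.49 ± 0.11) and Cyp2c11 (-1.24 ± 0.10). In RNA from whole cultures, fewer cells of a type and less RNA per cell cannot be told apart. The calls rest on the pairing of each treated array with its own control. In a fit without pair terms 15 of the 39 genes were lower, all among the 28, and 0 were higher. With 1 value per inferred cell preparation (described further on) 25 were lower and 0 higher. The shares of all genes were not taken in these fits, so the counts cannot be set against them.

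**Figure D1:**
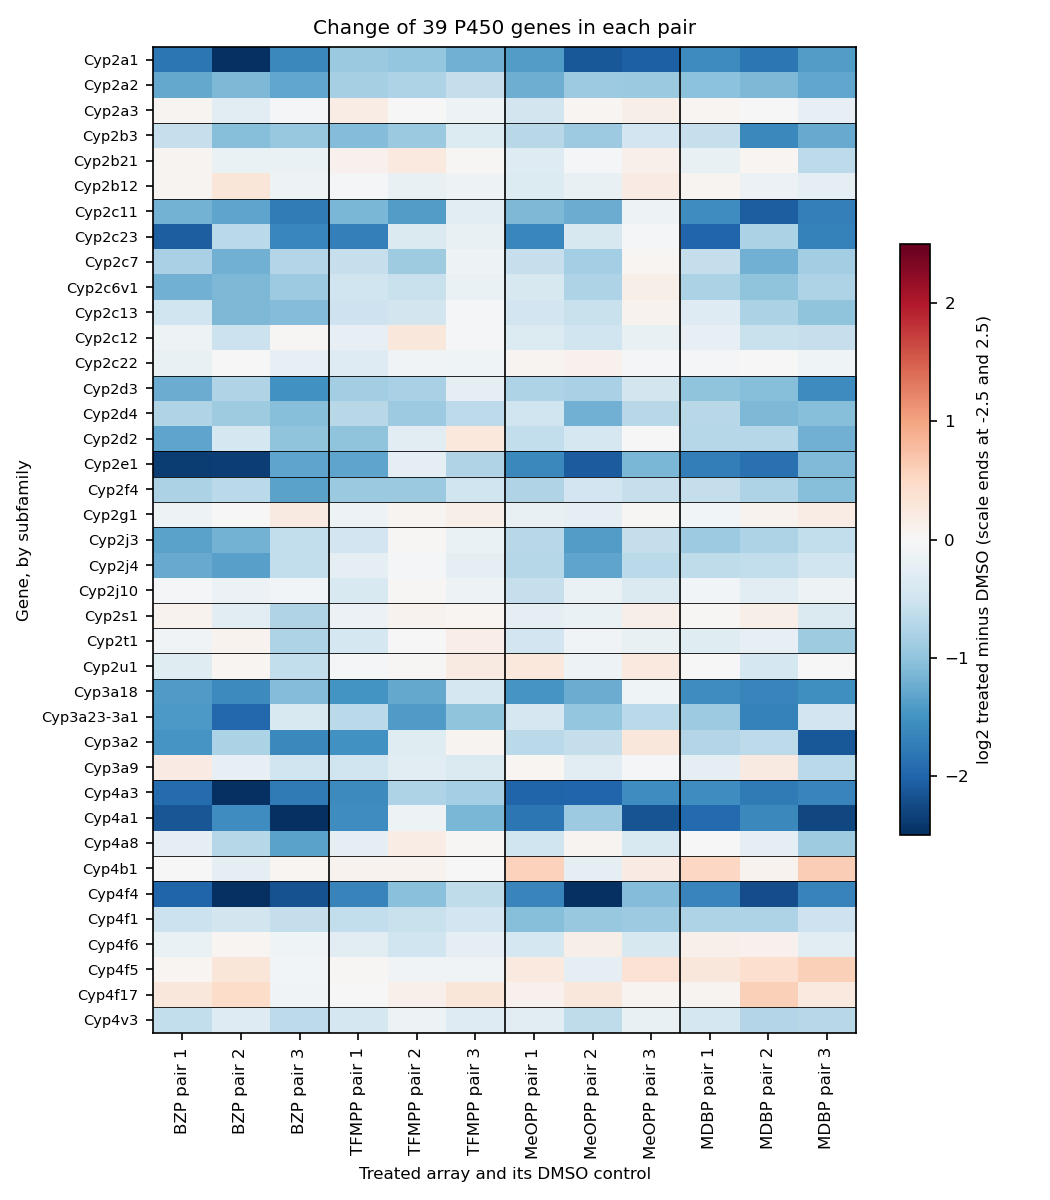
Change of each of the 39 P450 genes (rows) in each of the 12 pairs (columns, grouped by drug), as the log2 value of the treated array minus that of its DMSO control, in colour. Genes are ordered by subfamily, the colour scale ends at -2.5 and 2.5, and Cyp4f4, Cyp4a3, Cyp4a1, Cyp2a1, Cyp2e1 and Cyp2c11 are below 0 in all 12 pairs.

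The number of the 39 genes called varied by drug. With BZP 24 were lower and 0 higher, where 5.96% of all genes were lower and 6.66% higher. With MDBP 24 were lower (5.05% of all genes) and 1, Cyp4f5, was higher (4.68% of all genes). With MeOPP 16 were lower (4.52%) and 0 higher (3.45%), and with TFMPP 12 were lower (1.71%) and 0 higher (0.872%). All 3 treated arrays lay below all 3 DMSO arrays for 9 of the 39 genes with BZP (4.26% of all genes), 10 with TFMPP (4.28%), 13 with MeOPP (6.01%) and 8 with MDBP (5.57%). The median change of the 39 genes was -0.91 with BZP, -0.71 with MDBP, -0.37 with MeOPP and -0.34 with TFMPP, while the median over all genes lay between 0.01 and 0.03. The 11 genes called lower with each of the 4 drugs were Cyp2a1, Cyp2a2, Cyp2b3, Cyp2c11, Cyp2d3, Cyp2d4, Cyp2f4, Cyp3a18, Cyp4a3, Cyp4f1 and Cyp4f4. A further 4, Cyp2e1, Cyp2j3, Cyp2j4 and Cyp4a1, were called with every drug but TFMPP. The 7 genes called with exactly 2 drugs, Cyp2c6v1, Cyp2c7, Cyp2c13, Cyp2c23, Cyp2d2, Cyp3a2 and Cyp4v3, were all called with BZP and MDBP. In the tests between drugs (described further on) 0 of the 39 genes passed. The third pairs of BZP and MDBP also belong to another inferred preparation than those of TFMPP and MeOPP. Drug and preparation cannot be told apart in those pairs. Without pair terms, 0 of the 39 genes passed with any single drug (limma, adjusted p), and without the first TFMPP pair 2 were lower with TFMPP. Shares of all genes were not taken for these fits, nor for the sets of genes called with the same drugs.

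**Figure D2:**
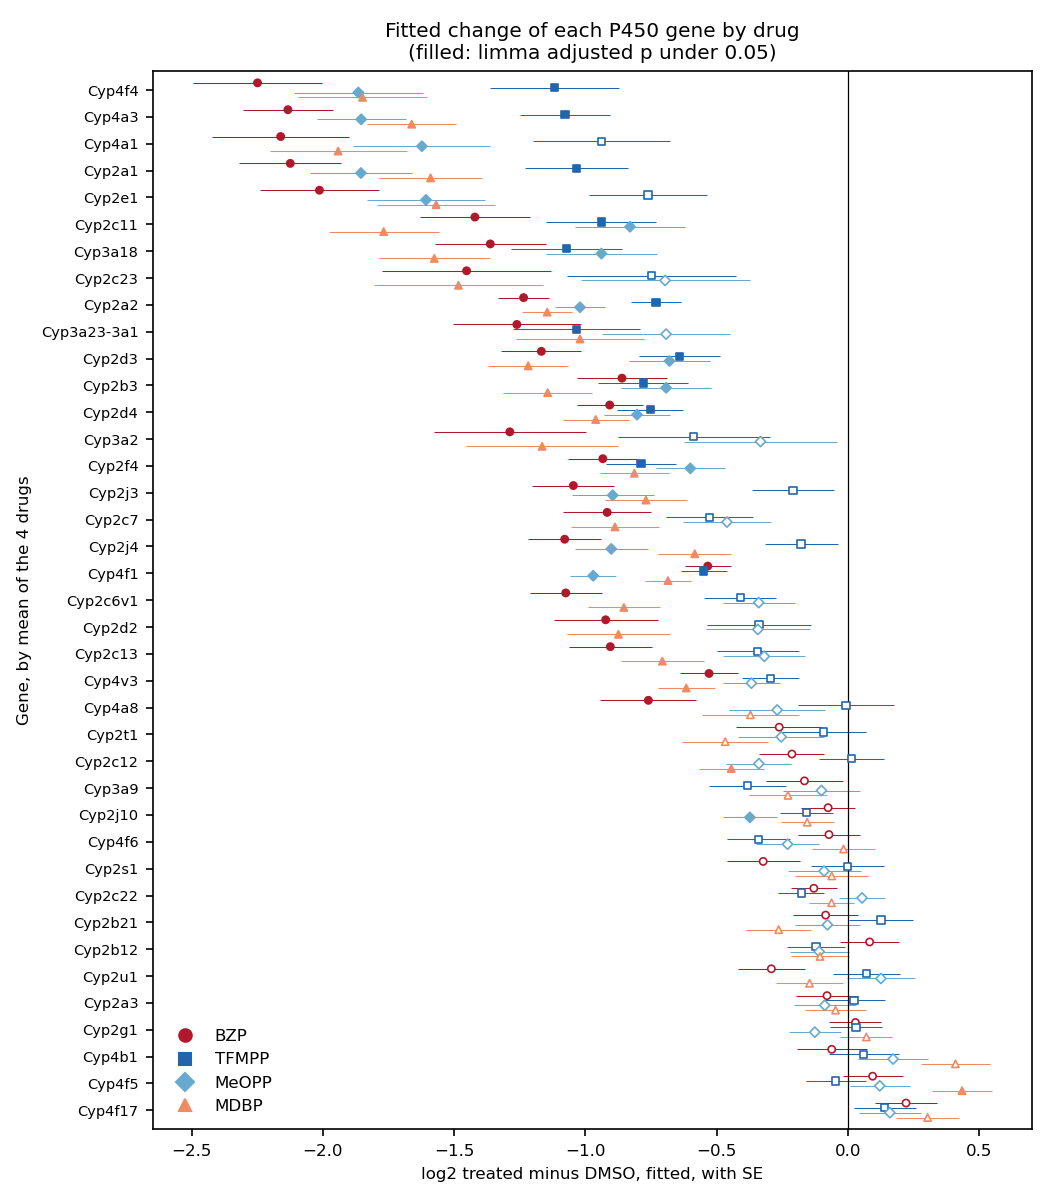
Fitted log2 change, treated minus DMSO, of each P450 gene with each drug (colour and marker) and its standard error, with genes ordered by their mean over the drugs. Filled markers have an adjusted p under 0.05, and Cyp4f5 with MDBP is the 1 filled marker right of 0.

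Promoter sequence is shown for 3 genes that fell in 12 of 12 pairs, from the fatty acid, ethanol and steroid branches, and for Cyp2c22, which did not pass with any drug. Each line holds the 250 bases before the gene's first listed RefSeq start in GRCr8, in the direction of the gene. The windows are Cyp4a3 (chr5:134352237-134352486, minus strand), Cyp2e1 (chr1:205269717-205269966, plus strand), Cyp2c11 (chr1:246174966-246175215, plus strand) and Cyp2c22 (chr1:248980768-248981017, minus strand). Capitals mark matches to TATAAA on the gene's strand (a TATA box) and, on either strand, to AGGTCA (a nuclear receptor half-site), GTTAAT (part of the HNF1 motif) and CCAAT (the CCAAT box). No match overlapped another.
Cyp4a3: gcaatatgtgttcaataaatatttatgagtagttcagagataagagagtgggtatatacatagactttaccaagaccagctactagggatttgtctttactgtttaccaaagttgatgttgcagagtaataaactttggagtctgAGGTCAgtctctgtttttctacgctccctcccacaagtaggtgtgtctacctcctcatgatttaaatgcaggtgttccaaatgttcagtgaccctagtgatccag
Cyp2e1: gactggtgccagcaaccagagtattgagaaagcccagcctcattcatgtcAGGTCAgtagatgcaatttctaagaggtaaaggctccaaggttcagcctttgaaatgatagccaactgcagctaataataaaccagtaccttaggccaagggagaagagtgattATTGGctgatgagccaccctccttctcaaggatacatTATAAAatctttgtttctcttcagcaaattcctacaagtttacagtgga
Cyp2c11: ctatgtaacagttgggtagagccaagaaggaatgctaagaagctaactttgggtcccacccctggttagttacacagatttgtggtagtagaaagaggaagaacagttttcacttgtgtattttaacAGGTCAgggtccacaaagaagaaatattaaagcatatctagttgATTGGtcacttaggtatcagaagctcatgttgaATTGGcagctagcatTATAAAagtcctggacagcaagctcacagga
Cyp2c22: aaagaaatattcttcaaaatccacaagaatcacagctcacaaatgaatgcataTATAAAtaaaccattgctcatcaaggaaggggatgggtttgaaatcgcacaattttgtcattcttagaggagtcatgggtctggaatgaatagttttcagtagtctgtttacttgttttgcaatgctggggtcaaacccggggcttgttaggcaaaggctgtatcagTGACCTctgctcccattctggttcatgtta
The Cyp4a3 window held 1 match, AGGTCA from base -105 to -100 before the start. Cyp2e1 held AGGTCA at -200 to -195, CCAAT on the opposite strand at -86 to -82 and TATAAA at -49 to -44. Cyp2c11 held AGGTCA at -123 to -118, 2 opposite-strand CCAAT matches and TATAAA at -31 to -26. Cyp2c22 held TATAAA at -197 to -192 and AGGTCA on the opposite strand at -30 to -25. A RefSeq window was at hand for 33 of the 39 genes, 23 called lower in the mean and 10 not. TATAAA was in 26.1% of the windows of genes called lower and 20% of the others, against 8.38% of all 27457 windows of the same length. AGGTCA was in 26.1% of those called lower, 50% of the others and 13.7% of all windows. CCAAT was in 43.5%, 50% and 34.3% of the same sets, and GTTAAT in 8.7%, 20% and 6.46%. A match describes letters in the window and is not a binding site.

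Cyp4a1 and Cyp4a3 are fatty acid omega-hydroxylases and textbook targets of PPAR alpha. The Cyp4a3 log2 level was 8.28, 6.98 and 9.08 in the BZP arrays, against 10.20, 9.68 and 10.84 in their DMSO controls. It was 8.37, 8.70 and 9.34 in the TFMPP arrays, against 9.97, 9.48 and 10.20 in their DMSO controls. With the other two drugs it was 7.61, 7.13 and 8.56 in the MeOPP arrays, against 9.62, 9.12 and 10.12 in their DMSO controls, and 8.10, 7.98 and 9.13 in the MDBP arrays, against 9.65, 9.76 and 10.79 in their DMSO controls. All 3 treated arrays lay below all 3 DMSO arrays with each of the 4 drugs. The fitted change of Cyp4a3 was -2.13 ± 0.17 with BZP, -1.66 ± 0.17 with MDBP, -1.85 ± 0.17 with MeOPP and -1.08 ± 0.17 with TFMPP. The Cyp4a1 level was 6.10, 5.35 and 6.95 in the BZP arrays, against 8.23, 6.90 and 9.75 in their DMSO controls. In the pairs of the other drugs it was 6.53, 6.19 and 6.81 in the TFMPP arrays, against 8.08, 6.31 and 7.95 in their DMSO controls, 5.76, 5.49 and 5.73 in the MeOPP arrays, against 7.56, 6.40 and 7.89 in their DMSO controls, and 5.44, 5.25 and 7.05 in the MDBP arrays, against 7.38, 6.87 and 9.32 in their DMSO controls. Cyp4a1 was lower in 12 of 12 pairs, although treated and DMSO arrays overlapped with every drug but MeOPP. Its change was -2.16 ± 0.26 with BZP, -1.94 ± 0.26 with MDBP, -1.62 ± 0.26 with MeOPP and -0.94 ± 0.26 with TFMPP, and the one with TFMPP did not pass (adjusted p = 0.0944). Cyp4a8, an omega-hydroxylase best known from kidney, changed by -0.35 ± 0.09 in the mean (adjusted p = 0.0101) and passed with BZP alone (-0.76 ± 0.18). The call in the mean was lost with 1 value per preparation (adjusted p = 0.0876). Its changes in single pairs were -0.24, -0.71 and -1.33 with BZP, 0.00, -0.22 and -0.89 with MDBP, -0.50, 0.07 and -0.37 with MeOPP, and -0.23, 0.18 and 0.03 with TFMPP. The third BZP pair moved most, and a dimmer probe set of the same gene gave -0.06 ± 0.07 (adjusted p = 0.587). Cyp4a2 has no probe set of its own here, and whether the Cyp4a3 probe set also reads Cyp4a2 was not tested.

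The Cyp4f enzymes hydroxylate leukotriene B4 and other eicosanoids, and their 5 genes did not move as 1 block. Cyp4f4 had log2 levels of 5.43, 4.76 and 7.17 in the BZP arrays, against 7.44, 7.33 and 9.34 in their DMSO controls. It had 5.66, 6.67 and 6.65 in the TFMPP arrays, against 7.33, 7.73 and 7.28 in their DMSO controls. With MeOPP and MDBP it had 5.32, 4.35 and 6.14 in the MeOPP arrays, against 6.98, 7.21 and 7.22 in their DMSO controls, and 5.25, 5.01 and 7.32 in the MDBP arrays, against 6.91, 7.23 and 8.98 in their DMSO controls. Treated and DMSO arrays did not overlap with BZP, TFMPP and MeOPP. They overlapped with MDBP, where each treated array was still below its own control. Cyp4f4 changed by -2.25 ± 0.25 with BZP, -1.85 ± 0.25 with MDBP, -1.86 ± 0.25 with MeOPP and -1.12 ± 0.25 with TFMPP. Cyp4f1 moved less but evenly: its changes in single pairs were -0.55, -0.46 and -0.59 with BZP, -0.77, -0.78 and -0.51 with MDBP, -1.06, -0.95 and -0.91 with MeOPP, and -0.62, -0.56 and -0.47 with TFMPP, with a mean of -0.68 ± 0.04 (adjusted p = 1.83e-08). Every MeOPP pair of Cyp4f1 moved further than every pair of the other 3 drugs. Cyp4f17 rose by 0.21 ± 0.06 in the mean (adjusted p = 0.0186) and passed with no single drug. Its changes were 0.29, 0.46 and -0.08 with BZP, 0.07, 0.60 and 0.25 with MDBP, 0.11, 0.29 and 0.07 with MeOPP, and -0.01, 0.13 and 0.30 with TFMPP, above 0 in 10 of 12 pairs, and the call was lost with 1 value per preparation (adjusted p = 0.0602). Cyp4f5 had a mean change of 0.15 ± 0.06 (adjusted p = 0.072). It rose with MDBP (0.43 ± 0.11, adjusted p = 0.0303), where its level was 4.78, 4.69 and 4.47 in the MDBP arrays, against 4.49, 4.26 and 3.88 in their DMSO controls. The MDBP and DMSO arrays of Cyp4f5 overlapped, although each treated array was above its own control. Its changes with the other drugs were 0.04, 0.30 and -0.06 with BZP, 0.03, -0.08 and -0.08 with TFMPP and 0.24, -0.24 and 0.36 with MeOPP. Set against the 12 DMSO arrays as a single control group, Cyp4f5 with MDBP was -0.28 (adjusted p = 0.824), the opposite direction. Cyp4f6 changed by -0.16 ± 0.06 (adjusted p = 0.0594), and Cyp4v3, the rat member of a fatty acid hydroxylase subfamily, fell by 0.45 ± 0.05 with the mean of the drugs.

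Cyp2e1, which oxidizes ethanol, acetaminophen and other small molecules, had log2 levels of 9.65, 9.59 and 11.54 in the BZP arrays, against 12.03, 11.94 and 12.85 in their DMSO controls. It had 10.65, 11.93 and 10.85 in the TFMPP arrays, against 11.96, 12.14 and 11.60 in their DMSO controls. With MeOPP and MDBP it had 10.01, 9.69 and 10.29 in the MeOPP arrays, against 11.61, 11.77 and 11.43 in their DMSO controls, and 10.29, 10.19 and 11.71 in the MDBP arrays, against 12.01, 12.05 and 12.82 in their DMSO controls. The groups did not overlap with BZP, MeOPP and MDBP, and they overlapped with TFMPP. The change of Cyp2e1 was -2.01 ± 0.23 with BZP, -1.57 ± 0.23 with MDBP, -1.61 ± 0.23 with MeOPP and -0.76 ± 0.23 with TFMPP, and the one with TFMPP did not pass (adjusted p = 0.124).

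Among the steroid hydroxylases, Cyp2a1 (a testosterone hydroxylase) had log2 levels of 7.55, 6.52 and 8.95 in the BZP arrays, against 9.35, 9.48 and 10.57 in their DMSO controls. It had 8.20, 8.71 and 7.51 in the TFMPP arrays, against 9.14, 9.68 and 8.71 in their DMSO controls. With MeOPP and MDBP it had 7.38, 6.99 and 6.42 in the MeOPP arrays, against 8.78, 9.11 and 8.46 in their DMSO controls, and 7.42, 7.68 and 8.95 in the MDBP arrays, against 8.98, 9.49 and 10.34 in their DMSO controls. TFMPP was the 1 drug with which treated and DMSO arrays of Cyp2a1 overlapped. The change was -2.12 ± 0.20 with BZP, -1.59 ± 0.20 with MDBP, -1.85 ± 0.20 with MeOPP and -1.03 ± 0.20 with TFMPP, and all 4 passed. Cyp2a2, its close relative, fell by 1.03 ± 0.05 in the mean and in 12 of 12 pairs. Cyp2a3, a gene of lung and nasal tissue, changed by -0.05 ± 0.06 (adjusted p = 0.647).

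The Cyp2c genes include the main sex-dependent P450s of rat liver. Cyp2c11, the chief male-specific P450, had log2 levels of 5.74, 8.59 and 6.94 in the BZP arrays, against 6.92, 9.91 and 8.70 in their DMSO controls. It had 5.66, 8.28 and 8.59 in the TFMPP arrays, against 6.81, 9.68 and 8.85 in their DMSO controls. With MeOPP and MDBP it had 6.07, 8.55 and 8.70 in the MeOPP arrays, against 7.20, 9.78 and 8.82 in their DMSO controls, and 5.89, 7.23 and 6.86 in the MDBP arrays, against 7.43, 9.29 and 8.56 in their DMSO controls. Only the MDBP arrays lay wholly below their DMSO controls, yet Cyp2c11 was lower in 12 of 12 pairs. Its change was -1.42 ± 0.21 with BZP, -1.77 ± 0.21 with MDBP, -0.83 ± 0.21 with MeOPP and -0.94 ± 0.21 with TFMPP, and pair 3 of TFMPP (-0.26) and of MeOPP (-0.12) moved least. Cyp2c13, another male-specific gene, fell by 0.57 ± 0.08, on a probe set of a type that can bind transcripts of related genes. Cyp2c23, an arachidonic acid epoxygenase, fell by 1.09 ± 0.16, and Cyp2c7 and Cyp2c6v1 fell by 0.70 ± 0.08 and 0.67 ± 0.07. Cyp2c12, the female-specific counterpart of Cyp2c11, lay at a log2 level of 3.63 ± 0.96 in treated arrays and 3.88 ± 0.97 in DMSO arrays (SD, n = 12 each), and changed by -0.25 ± 0.06 (limma adjusted p = 0.00824). Cyp2c22, which hydroxylates retinoic acid in rat liver, changed by -0.08 ± 0.04 (adjusted p = 0.237) and passed with no drug. Near-identical sequence makes single Cyp2a, Cyp2c, Cyp2d and Cyp3a values uncertain, since probes of 1 gene may also read its neighbours.

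Cyp2b1 and Cyp2b2, the classic phenobarbital-inducible pair, have no probe set of their own, so no change can be given for either alone. Cyp2b3, a constitutive relative, was measured, and its change does not show theirs. Cyp2b3 changed by -0.57, -1.07 and -0.95 with BZP, -0.57, -1.60 and -1.26 with MDBP, -0.69, -0.91 and -0.48 with MeOPP, and -1.08, -0.92 and -0.34 with TFMPP. All 12 pairs were lower, and the mean was -0.87 ± 0.09 (adjusted p = 1.74e-06). Cyp2b12 (-0.06 ± 0.06) and Cyp2b21 (-0.08 ± 0.06) did not pass. The Cyp2d genes are the rat relatives of the human enzyme that oxidizes many amine drugs, and all 3 fell: Cyp2d3 by 0.93 ± 0.08, Cyp2d4 by 0.86 ± 0.06 and Cyp2d2 by 0.62 ± 0.10. The 4 probe sets that the array annotation gives to a pair of symbols each, at least 1 of them from these P450 families, are not among the 39 genes and are given without a gene name. Their mean changes were -2.17, -1.46, -1.32 and -0.73, all past the test.

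Cyp3a23-3a1, the steroid-inducible PXR target, changed by -1.44, -1.96 and -0.38 with BZP, -0.91, -1.68 and -0.48 with MDBP, -0.43, -0.97 and -0.68 with MeOPP, and -0.67, -1.42 and -1.01 with TFMPP. It was lower in 12 of 12 pairs, with a mean of -1.002 ± 0.121 and with no call for MeOPP (adjusted p = 0.119). Cyp3a18 changed by -1.41, -1.59 and -1.09 with BZP, -1.55, -1.64 and -1.53 with MDBP, -1.47, -1.24 and -0.11 with MeOPP, and -1.50, -1.28 and -0.44 with TFMPP. It was called with every drug, and treated and DMSO arrays overlapped with every drug. Cyp3a2, the male form of the subfamily, changed by -1.47, -0.78 and -1.61 with BZP, -0.74, -0.65 and -2.11 with MDBP, -0.68, -0.60 and 0.28 with MeOPP, and -1.51, -0.31 and 0.06 with TFMPP. It was above its control in pair 3 of TFMPP and of MeOPP, and below it in the other 10 pairs, with a mean of -0.84 ± 0.15 (adjusted p = 0.000434). Cyp3a9, the form that predominates in female rats, changed by 0.20, -0.20 and -0.50 with BZP, -0.23, 0.22 and -0.68 with MDBP, 0.04, -0.29 and -0.06 with MeOPP, and -0.50, -0.28 and -0.37 with TFMPP. Its mean of -0.22 ± 0.07 passed narrowly (adjusted p = 0.0419), with 9 of 12 pairs lower, and was lost with 1 value per preparation (adjusted p = 0.259).

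**Figure D3:**
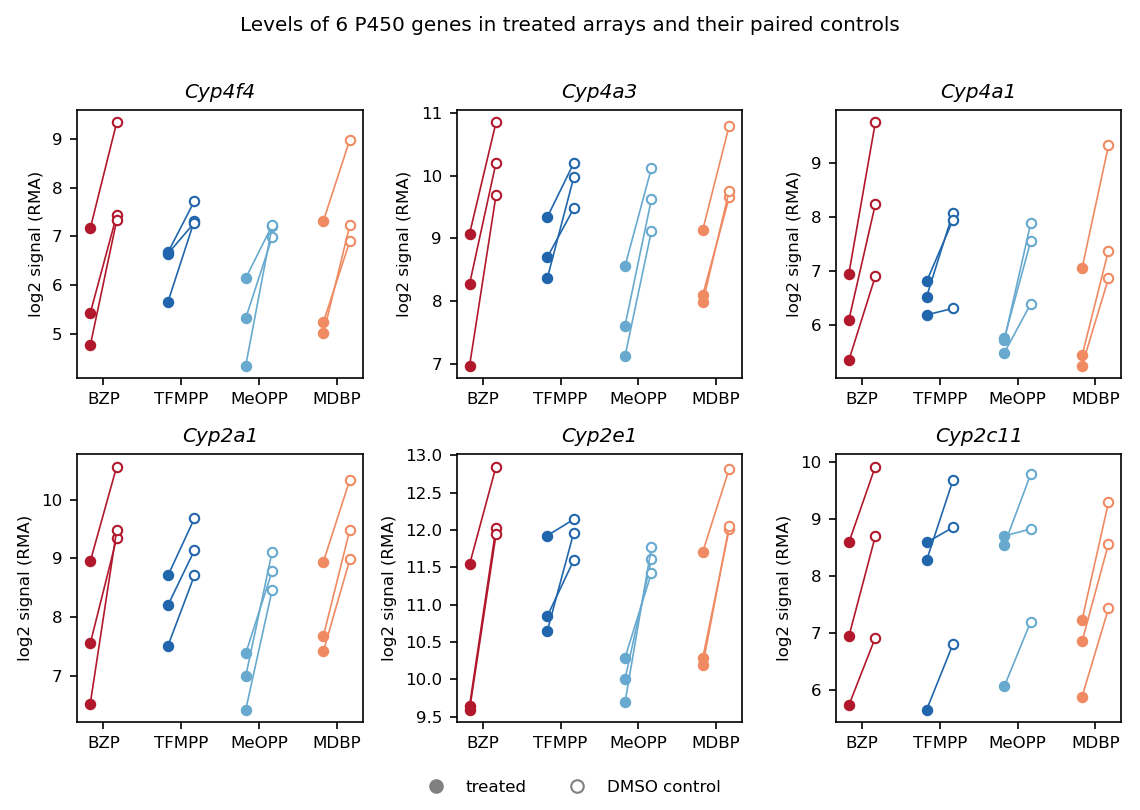
Log2 level of Cyp4f4, Cyp4a3, Cyp4a1, Cyp2a1, Cyp2e1 and Cyp2c11 in every array, with treated arrays left of their DMSO controls and a line joining each pair. Each treated point lies below its DMSO partner, while treated and DMSO points of Cyp2c11 overlap with every drug but MDBP.

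The Cyp2j genes encode arachidonic acid epoxygenases. Cyp2j3 fell by 0.73 ± 0.08 on its brighter probe set and by 1.32 ± 0.11 on its other one. Cyp2j4 fell by 0.69 ± 0.07 and Cyp2j10 by 0.19 ± 0.05. Of the genes better known outside the liver, Cyp2f4 of the airways fell by 0.78 ± 0.07, and Cyp2g1 of the olfactory mucosa (0.00 ± 0.05), Cyp4b1 of lung (0.15 ± 0.07), Cyp2s1 (-0.12 ± 0.07) and Cyp2u1 (-0.06 ± 0.06) did not pass. Cyp2t1 fell by 0.27 ± 0.08 in the mean, passed with no single drug and lost its call with 1 value per preparation (adjusted p = 0.142). Of the 30 genes with a mean log2 level of at least 5, 25 were lower, against 16.3% of all genes that bright, and of the 9 dimmer ones 3 were lower, against 5.21% of all dimmer genes. The dim genes lie near the low end of the array's scale, where arrays understate changes.

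Not all neighbouring P450 genes were called. The 39 genes were put in RefSeq's order on GRCr8, and those at most 1000000 bases apart were joined into a run. Genes outside the 39 were not looked at and may lie between them. The longest run held 10 genes: Cyp2s1, Cyp2b3, Cyp2b21, Cyp2b12, Cyp2g1, Cyp2a3, Cyp2a1, Cyp2a2, Cyp2f4 and Cyp2t1. In that run 5 were lower (Cyp2b3, Cyp2a1, Cyp2a2, Cyp2f4 and Cyp2t1). The other 5 are all among the 9 dim genes, with mean levels of 2.52 to 3.77, where changes can be understated. Of the 9 dim genes 3 were called lower, among them Cyp4a8 at a mean of 2.89. Whether the level bears on the missing calls was not tested. In the run Cyp2c6v1, Cyp2c7, Cyp2c12, Cyp2c13 and Cyp2c22, all but Cyp2c22 were lower. Cyp2c22, at a mean of 12.91, lies near the upper end of the array's scale, where changes can be understated too. Whether that level bears on its missing call was not tested either. In the Cyp4f run 2 of 5 were lower, and in the run of Cyp4a8, Cyp4a3, Cyp4a1 and Cyp4b1 all but Cyp4b1 were. The Cyp2d, Cyp2j and Cyp3a runs of 3 genes each were lower throughout.

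The 6 differences between drugs were tested for all genes, and 0 of the 39 passed in any of them (limma, adjusted p), where 0.0633% of all genes were lower and 0.0281% higher with BZP than with TFMPP and 0% passed in the other 5. At an unadjusted p under 0.05 there were 12 of the 39 genes for BZP minus TFMPP, all with the larger fall in BZP, where 7.41% of all genes were below it. The numbers were 6 for BZP minus MeOPP (6.83% of all genes), 2 for BZP minus MDBP (3.25%), 8 for TFMPP minus MeOPP (5.49%), 11 for TFMPP minus MDBP (7.1%) and 5 for MeOPP minus MDBP (4.42%). The 2 genes for BZP minus MDBP are a share near that of all genes. The smallest adjusted p was that of Cyp2j4 for BZP minus TFMPP, -0.90 (95% confidence interval -1.32 to -0.48, adjusted p = 0.225). Cyp2e1 differed by -1.25 (95% confidence interval -1.93 to -0.57, adjusted p = 0.339) and Cyp4a3 by -1.06 (95% confidence interval -1.57 to -0.54, adjusted p = 0.253) in the same contrast. Between the 2 benzyl drugs the difference of Cyp4a3, BZP minus MDBP, was -0.47 (95% confidence interval -0.98 to 0.04, adjusted p = 1), and that of Cyp2e1 was -0.44 (95% confidence interval -1.12 to 0.23, adjusted p = 1). Between the 2 phenyl drugs, TFMPP minus MeOPP was 0.78 (95% confidence interval 0.27 to 1.29, adjusted p = 0.768) for Cyp4a3 and 0.85 (95% confidence interval 0.17 to 1.52, adjusted p = 0.854) for Cyp2e1. For Cyp2c11, MeOPP minus MDBP was 0.94 (95% confidence interval 0.31 to 1.57, adjusted p = 0.963). These intervals are not adjusted for the number of tests, so an interval that leaves out 0 does not show a difference between drugs. The intervals are also wide, so a missed threshold does not show that the drugs acted alike. Without the first TFMPP pair, Cyp4a3 passed for BZP minus TFMPP (-1.32, adjusted p = 0.0475), the 1 such call among the fits that left out a pair.

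The DMSO arrays fell into 5 sets by their correlation over all probe sets, called preparations here, though no label names them. DMSO arrays of the same preparation correlated at 0.9943 to 0.9971 and those of different ones at 0.9622 to 0.9919. All 4 first pairs belonged to preparation 1. The second pairs belonged to preparation 2, except that of MDBP, which stood alone as preparation 5. The third pairs were split by drug, with BZP and MDBP in preparation 3 and TFMPP and MeOPP in preparation 4. With the pairs of a preparation averaged gene by gene, the median change of the 39 genes was -0.66, -0.56, -0.81, -0.19 and -0.72 in preparations 1 to 5. Preparation 4 stood nearest to 0, and it holds pairs of TFMPP and MeOPP alone, the drugs with the fewest calls. In pairs 1, 2 and 3, the median was -0.61, -0.68 and -0.76 with BZP, -0.59, -0.72 and -0.77 with MDBP, -0.51, -0.56 and -0.18 with MeOPP, and -0.51, -0.27 and -0.17 with TFMPP, while the median of all genes stayed between 0.00 and 0.03 in every pair. Within preparation 1, the only one with all 4 drugs, the medians of the pairs lay between -0.61 with BZP and -0.51 with TFMPP and MeOPP. For Cyp4a3, the change was -1.93 with BZP and -1.60 with TFMPP in preparation 1, and -2.71 with BZP and -0.78 with TFMPP in preparation 2. For Cyp2e1 it was -2.38 with BZP and -1.32 with TFMPP in preparation 1, and -2.35 with BZP and -0.22 with TFMPP in preparation 2. BZP and TFMPP share no other preparation, and in the third pairs drug and preparation cannot be told apart.

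In preparation 4, 18 of the 28 lowered genes were within 0.5 of 0, against 7, 8, 3 and 4 in preparations 1, 2, 3 and 5. Among them were the drug and steroid hydroxylases Cyp2c11 (-0.19), Cyp3a2 (0.17) and Cyp2c6v1 (-0.01). Others kept large changes there: Cyp2a1 changed by -1.62, Cyp4a1 by -1.65 and Cyp4f1 by -0.69. Leaving out any 1 of the 5 preparations gave 25 to 28 genes lower in the mean.

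**Figure D4:**
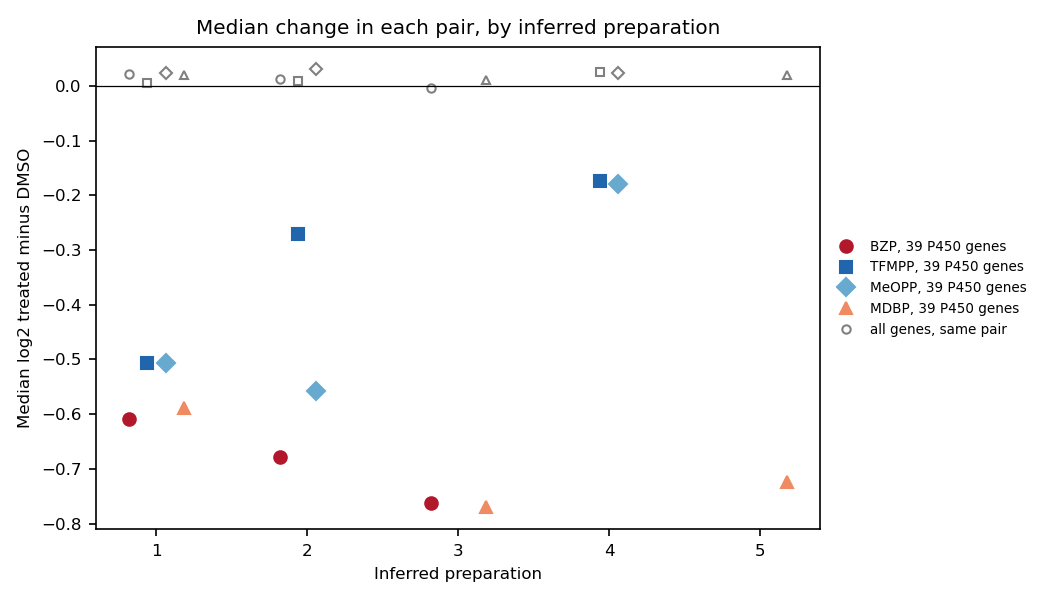
Median log2 change, treated minus DMSO, of the 39 P450 genes in each pair, by drug and by the preparation inferred from the DMSO arrays, beside the median over all genes. The pairs of preparation 4 lie at -0.17 and -0.18, and the other 10 pairs between -0.27 and -0.77.

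The P450 genes varied widely between DMSO cultures, without any drug. Over the 12 DMSO arrays the median range of the 39 genes was 1.57 log2 units, against 0.68 for all genes, and among genes with a mean of at least 5 it was 1.66 against 0.83. Of the 30 brighter P450 genes, 24 spanned over 1 log2 unit and 11 over 2. Cyp3a2 spanned the most, 4.98 log2 units (31.6-fold), with a mean DMSO level of 6.40 in preparation 1, 9.26 in 2, 10.77 in 3, 9.45 in 4 and 8.50 in 5. The male-specific genes Cyp2c13 and Cyp2c11 spanned 13.9-fold and 8.6-fold, and Cyp4a1 10.8-fold. The female-specific Cyp2c12, a dim gene, spanned 6.07-fold. All 3 sex-specific Cyp2c genes had their highest mean DMSO level in preparation 2, at 10.15 for Cyp2c13, 9.79 for Cyp2c11 and 5.25 for Cyp2c12. Cyp2c22 spanned 1.15-fold. Among the 30 brighter genes, 23 had their highest mean DMSO level in preparation 3, and 13 had their lowest in preparation 1 and 10 in preparation 4. Shares of all genes were not taken for these counts, nor for the counts of genes spanning over 1 or 2 log2 units. The DMSO variation of Cyp3a2 was larger than the fitted change with any drug.

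**Figure D5:**
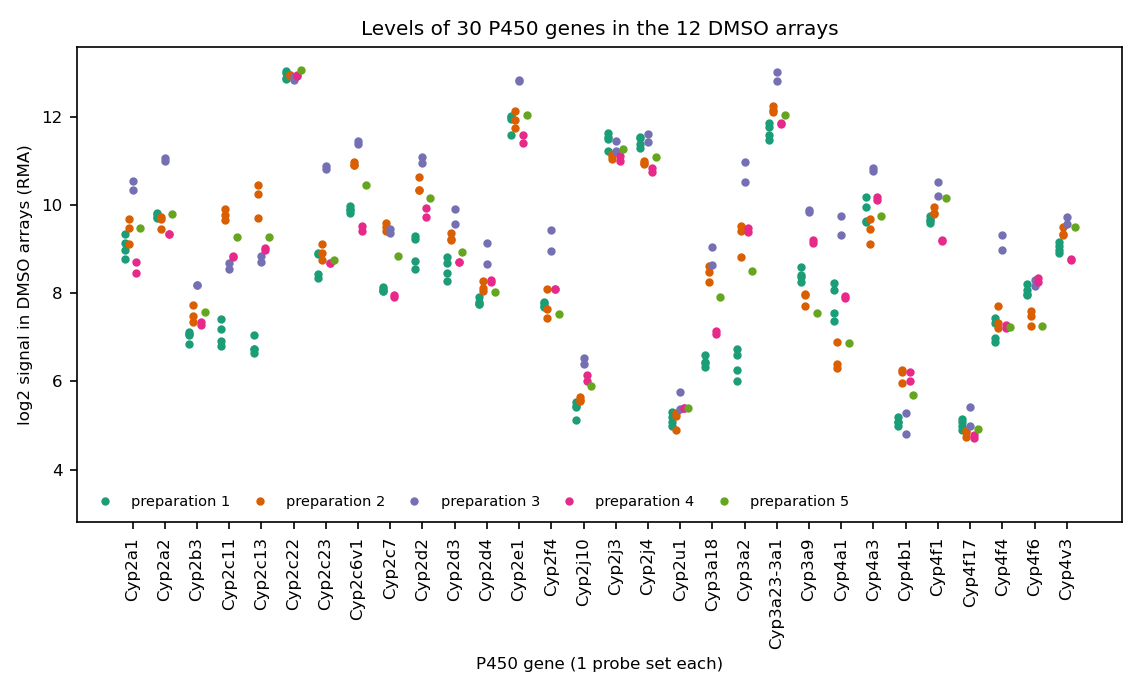
Log2 level (vertical axis) of the 30 P450 genes with a mean of at least 5 in the 12 DMSO arrays, coloured by inferred preparation. Preparations were defined from these arrays, so that points of a preparation lie together follows in part from that, and Cyp3a2 spans 4.98 log2 units while Cyp2c22 spans 0.21.

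Regulators and partners of P450 enzymes were read against the 11.9% of all genes lower and 18% higher in the mean of the drugs. Of 19 measured regulators, 8 were lower and 3 higher, with a list median of -0.14. CAR (Nr1i3) fell by 1.48 ± 0.19 in the mean (adjusted p = 2.27e-05) and PXR (Nr1i2) by 0.64 ± 0.05 (adjusted p = 2.24e-07), each in 12 of 12 pairs. The bile acid receptor FXR (Nr1h4) fell by 0.50 ± 0.05 and the coactivator Ppargc1a by 0.39 ± 0.05. The aryl hydrocarbon receptor (Ahr) rose by 0.39 ± 0.06 (adjusted p = 0.00027), in 12 of 12 pairs. Ppara, the receptor named above for Cyp4a genes, changed by -0.10 ± 0.06 (adjusted p = 0.25). Of 6 measured P450 partner genes, those of electron transfer and Pgrmc1, 3 were lower and 1 higher. Cytochrome b5 type A (Cyb5a) fell by 0.32 ± 0.05, ferredoxin 1 (Fdx1) by 0.23 ± 0.05 and P450 oxidoreductase (Por) by 0.23 ± 0.07. Cytochrome b5 type B (Cyb5b) rose by 0.39 ± 0.06. Of 11 measured genes of heme synthesis and breakdown 2 were lower (18.2%), a share near that of all genes. They were Alas1, the rate-limiting enzyme of heme synthesis in liver, by 0.46 ± 0.09 (adjusted p = 0.0011) and Ppox by 0.22 ± 0.05, both of synthesis. The list also holds the breakdown genes Hmox1, Hmox2, Blvra and Blvrb, which were not called, so its share is not that of synthesis alone. The 19 measured P450 genes outside families 2, 3 and 4 had a median change of 0.00, with 7 lower (36.8%) and 3 higher. Among the lower ones were Cyp8b1 (-2.27 ± 0.18), Cyp7a1 (-1.38 ± 0.16) and Cyp26a1 (-1.15 ± 0.24). Cyp8b1 fell further than Cyp4f4 (-1.77 ± 0.12), the largest fall among the 39 genes of families 2, 3 and 4 with a probe set of their own. The higher ones were Cyp51 (1.262 ± 0.065), Cyp1a1 (1.17 ± 0.20) and Cyp20a1 (0.215 ± 0.049). The median therefore does not show that these genes were unchanged.

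Markers of the cells in the cultures were measured on the same arrays. Of 11 measured hepatocyte markers, 6 were lower and 1 higher in the mean of the drugs, with a median of -0.16, and their mean log2 level ranged from 11.99 to 12.59 in treated arrays and from 12.29 to 12.73 in DMSO arrays. The lower ones were Apob by -1.02 ± 0.06, Cps1 by -0.37 ± 0.06, Tat by -0.28 ± 0.05, Ttr by -0.24 ± 0.04, Hnf4a (also on the list of regulators) by -0.23 ± 0.05 and Hpx by -0.16 ± 0.05, and Ahsg rose by 0.34 ± 0.05. Albumin (Alb) lay at 14.06 in treated and 14.07 in DMSO arrays, at the top of the array's scale, so a change could hardly be seen there. Of 11 macrophage and leukocyte markers 6 were lower and 1 higher, with a median of -0.23 and levels of 5.12 to 6.40 in treated and 5.31 to 6.54 in DMSO arrays. Of 10 stellate cell markers 2 were lower, of 8 sinusoidal endothelial markers 1, and of 6 cholangiocyte markers 0, and 0 genes of these 3 lists were higher. The stellate and endothelial shares lie near the 11.9% of all genes. The mean level of the stellate list ran from 4.43 to 5.22 in treated and 4.51 to 5.32 in DMSO arrays. That of the endothelial list ran from 4.04 to 5.73 in treated and 4.19 to 5.81 in DMSO arrays, and that of the cholangiocyte list from 3.82 to 3.99 in treated and 3.82 to 4.11 in DMSO arrays. The part of these shifts in the P450 result was not tested.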

How the data were processed

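Affymetrix rat arrays were read for 12 treated and 12 DMSO samples of hepatocytes. The deposited values are on the log2 scale and were made by RMA (background correction, quantile normalization, probe summary), per the submitters' processing notes; the RMA version was not given in the sources used here. They were used as deposited, with array medians between 4.454 and 4.524. Arrays carry no read depth, and their number limits the precision.

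The table lists 31099 probe sets. Without 57 Affymetrix controls, 31042 were tested. Names came from the platform annotation, and probe sets with several symbols were not named. Where a gene had several probe sets, the one brightest on average over the 24 arrays stood for it. All 24 arrays entered 1 limma 3.58.1 model under R 4.3.3, with a term for each of the 12 pairs and each of the 4 drugs, 8 residual and 7.66 prior degrees of freedom. Two-sided moderated tests were adjusted by Benjamini-Hochberg over all tested probe sets, and called at an adjusted p under 0.05. The model was tested on simulated data. Plots used matplotlib 3.10.9 under Python 3.11.15. Promoter windows came from RefSeq (GRCr8).

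Control titles name the treated sample of each pair. As a check, the 2 arrays of a pair deviated together from their groups in all 12 pairs (correlation 0.612 to 0.802). Values in every pair are given for the 6 largest falls and 4 largest rises called in the mean and moving 1 way in at least 10 pairs, for the 3 largest of each direction called per drug and moving 1 way in 3 of 3 pairs, for called drug differences, and for genes fixed by name. Every P450 gene may be named with its fitted change. The genes, the lists and the rule were chosen with earlier results of these data known. Alternatives changed the pair terms, the control group, the arrays fitted, the filter on dim probe sets, the probe set, the normalization, the unit of replication and the pairs or preparations included.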

Additional observations from a re-analysis of the deposited data

How the results depend on the processing

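The counts and medians were refitted under 194 combinations of result and alternative, and 156 stayed within 1.5 times the count or within the spread between pairs. Dropping the replicate block (the pair terms) left 0 genes lower with BZP, TFMPP, MeOPP and MDBP, 0 higher with MDBP, and 15 lower and 0 higher in the mean. The 13 lost calls in the mean included Cyp2c11 (adjusted p = 0.178), Cyp3a18 (0.122) and Cyp3a2 (0.649). With the 12 DMSO arrays as 1 control group, 4 genes were lower with BZP, 1 with MDBP, 10 with MeOPP and 0 with TFMPP, 0 were higher with MDBP, and 15 were lower and 0 higher in the mean; the medians were -0.551 with BZP and -0.589 with MeOPP, and Cyp4f5 with MDBP turned to -0.275. Cyp4f5 with MDBP also lost its call, leaving 0 higher, with that drug's arrays alone, and at a mean of 4.998 it fell under the filter on dim probe sets, which again left 0 higher. Leaving out probe sets with a mean under 5 moved the medians to -0.99 with BZP, -0.881 with MDBP, -0.686 with MeOPP and -0.568 with TFMPP. With 1 value per preparation 25 genes were lower and 0 higher in the mean, and Cyp2t1, Cyp3a9 and Cyp4a8 lost their calls. Where values moved, the cause was not tested.

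Leaving out 1 pair at a time gave 19 to 22 genes lower with BZP, 17 to 20 with MDBP, 10 to 16 with MeOPP (10 without pair 1) and 2 to 9 with TFMPP (2 without pair 1, 4 without pair 2), 0 to 1 higher with MDBP, and 26 to 28 lower and 0 to 3 higher in the mean. The medians then ranged from -0.973 to -0.784 with BZP, -0.706 to -0.662 with MDBP, -0.585 to -0.308 with MeOPP, -0.491 to -0.254 with TFMPP and -0.694 to -0.616 in the mean. Leaving out 1 preparation gave 25 to 28 lower and 0 to 2 higher in the mean, with medians of -0.706 to -0.592. Differences between drugs numbered 0 to 1. For the 15 genes with values in every pair, 726 of 875 alternatives kept the call or its absence. A further 141 lost the call, 7 gained it and 1, Cyp4f5 with MDBP, reversed. A reversal was counted only where the change was called in the main fit or in the alternative. Uncalled changes that switched sign were counted as kept. An example is Cyp4f5 with BZP, at 0.094 in the main fit and -0.021 with the 12 DMSO arrays as 1 control group. Signal over background limits the 9 genes with a mean under 5.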
